A study of Mus musculus with 2 samples.

Results

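The enzymes that make noradrenaline and adrenaline, and those that make and recycle the cofactor tetrahydrobiopterin, were described in total RNA-seq of the adrenal gland. The members were 10 genes taken by symbol out of 55536 genes in the gene tables. They were Th, Ddc, Dbh and Pnmt of catecholamine synthesis, Gch1, Gchfr, Pts and Spr of tetrahydrobiopterin synthesis, and Qdpr and Pcbd1 of its regeneration. The annotated transcripts of Th and Ddc were included. The samples were adrenal gland tissue of 2 female B6CASTF1/J mice, which are F1 hybrids of C57BL/6J and CAST/EiJ, aged 18 to 20 months. There was 1 library per animal, made from 300 ng of total RNA with ribosomal RNA reduced and ERCC spike-ins (synthetic RNAs) added. Both animals form 1 group with no treatment or control, so no comparison between conditions was possible, and the difference between the animals has no replicate check. Separate females and tissue samples are named for animal 1 and animal 2, but the labels carry 1 donor identifier for both, and 1 field of animal 2 repeats the name of animal 1.

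Catecholamines are made from tyrosine in the chromaffin cells of the adrenal medulla, a tissue surrounded by the steroid-making cortex. Tyrosine hydroxylase forms L-DOPA in the rate-limiting step, the decarboxylase forms dopamine, the beta-hydroxylase forms noradrenaline inside the secretory granules, and the N-methyltransferase forms adrenaline. Tyrosine hydroxylase oxidises tetrahydrobiopterin at each turnover. The cofactor is built from GTP by GTP cyclohydrolase, pyruvoyltetrahydropterin synthase and sepiapterin reductase, and is returned to its reduced form by a dehydratase and a reductase.

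Total expected counts (estimated fragments, which need not be whole) were 35769717 in animal 1 and 35135703 in animal 2, and over 17024 genes the animals varied, in excess of counting noise, with a coefficient of variation of 0.242. The label of adrenal gland was checked against markers. Of 13 chromaffin cell markers other than the 10 enzymes, 12 reached a TPM of 1 or more in each library, led by the granins Chga (677 and 547.5 TPM in animals 1 and 2) and Chgb (592 and 561 TPM). The 7 cortex markers summed to 15670 and 20110 TPM. Markers of tissue around the gland also differed between the libraries. Summed over the 7 striated muscle markers, TPM was 148 in animal 1 and 0.35 in animal 2, with Acta1 and Tnnt3 the most abundant, and the 8 adipocyte markers to 3409 and 2186 TPM. The defining cholinergic gene Chat was listed at 0 in both libraries, as was the kidney gene Slc12a1. The 6 liver markers summed to 99.5 and 103 TPM, mostly Cyp2e1 (81.8 and 95.6 TPM), which other tissues also express. The other 5 went the opposite way, with a higher scaled count in animal 1, among them the defining gene Alb at 11.25 and 3.45 TPM (log2 ratio of animal 1 over animal 2 of 1.75), and the median of the 3 liver markers with enough counts was 0.78. Markers of nerve (8 genes, 6.50 and 5.62 TPM), glia (6 genes, 9.70 and 6.94 TPM), kidney (7 genes, 1.45 and 1.74 TPM) and mast or enterochromaffin-type cells (6 genes, 19.5 and 16.0 TPM, mostly Slc6a4) were low. The part of these other cells in the differences between the animals below was not tested, and in bulk RNA fewer cells of a type cannot be told apart from less RNA per cell.

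Before the levels, the sequences at the starts of the genes are shown for Th, for Gch1, which makes the cofactor of Th, and for both annotated starts of Ddc, between which the deposited quantifications disagreed. They are the bases that precede each RefSeq transcription start on GRCm38.p6 (mm10), 250 in each case, read 5′ to 3′ on the gene's own strand. Capitals mark every match, on either strand, to a set of motifs. The motif TGACGTCA is the full cyclic AMP response element, and TGACG is an arm that lies inside it. The motif GGGCGG is known as the GC box, the motif CCAAT as the box of that name, and the motif TATAAA as the TATA box. The motif ATTA is a core of homeodomain sites. The Th window is chr7:142899996-142900245, the Gch1 window chr14:47189414-47189663, the distal Ddc window chr11:11898145-11898394 and the proximal Ddc window chr11:11890409-11890658, all on the minus strand.
Th: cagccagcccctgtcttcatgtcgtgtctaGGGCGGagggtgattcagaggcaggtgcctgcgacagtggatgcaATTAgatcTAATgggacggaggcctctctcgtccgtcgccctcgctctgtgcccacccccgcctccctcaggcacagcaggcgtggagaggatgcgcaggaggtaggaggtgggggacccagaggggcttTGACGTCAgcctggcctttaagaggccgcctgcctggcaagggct
Gch1: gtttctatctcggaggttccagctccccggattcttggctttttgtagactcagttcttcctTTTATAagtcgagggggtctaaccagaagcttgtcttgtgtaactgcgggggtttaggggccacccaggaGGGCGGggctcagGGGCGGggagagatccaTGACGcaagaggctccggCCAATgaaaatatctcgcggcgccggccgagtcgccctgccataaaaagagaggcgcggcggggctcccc
Ddc distal start: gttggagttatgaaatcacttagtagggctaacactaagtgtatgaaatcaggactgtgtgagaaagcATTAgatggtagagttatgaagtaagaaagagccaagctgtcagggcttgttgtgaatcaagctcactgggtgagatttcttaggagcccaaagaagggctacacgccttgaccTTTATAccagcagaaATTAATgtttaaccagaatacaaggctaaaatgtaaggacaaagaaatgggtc
Ddc proximal start: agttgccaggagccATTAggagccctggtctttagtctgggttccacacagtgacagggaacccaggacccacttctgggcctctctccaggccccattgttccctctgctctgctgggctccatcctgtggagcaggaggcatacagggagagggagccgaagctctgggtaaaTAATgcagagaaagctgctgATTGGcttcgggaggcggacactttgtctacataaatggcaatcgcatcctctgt

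Motifs were counted in windows of 300 bases, which add the first 50 transcribed bases. Each percent of all windows is the share with at least 1 match, whatever the number of copies. Of the members, 9 of 10 matched the RefSeq promoter table, with 10 promoters among 32851, and Pnmt had no entry. The Th window held the palindrome TGACGTCA from 45 to 38 bases before the start, a motif found in 1.79% of all windows, and it was the only member window with it. In GENCODE Th-201 begins further upstream, at 142900014, so the last printed bases of this window lie in its first exon and the motif is nearer to that start. The Gch1 window held TGACG from 88 to 84 bases before the start (20.8% of all windows), CCAAT from 70 to 66 bases before it (37.4%) and 2 copies of GGGCGG (35.7%). The distal Ddc window held TATAAA on the opposite strand, from 68 to 63 bases before the start (13.6% of all windows), and 3 copies of ATTA (58.0%). The proximal Ddc window held CCAAT on the opposite strand, from 55 to 51 bases before the start, and 2 copies of ATTA. The 2 starts also differed in base composition, at 41.3% G and C in the distal window and 54.3% in the proximal one, while the median over all windows was 52.7%. The Dbh window, which held 3 copies of ATTA, 1 CCAAT that overlaps one of them, and 1 TGACG, lies inside the first exon of Dbh-201 in GENCODE, so the annotations disagree on where Dbh begins. GGGCGG was found at least once in each of the windows of Gchfr, Pts, Spr, Qdpr and Pcbd1. A match is a description of letters and not a site of binding. The letters are those of the reference assembly, and the alleles of these F1 animals were not examined.

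All 10 enzymes were detected, which required a TPM of 1 or more in each library, and they also stood above a TPM of 5. TPM is transcript abundance corrected for length and scaled to a fixed total, so it can be compared between genes. Summed TPM over the 4 catecholamine enzymes was 547 in animal 1 and 427 in animal 2 (487 ± 84.3, SD, n = 2). The 4 genes of tetrahydrobiopterin synthesis summed to 86.4 and 89.2 TPM (87.8 ± 1.99), and the 2 of regeneration to 43.4 and 40.3 TPM (41.8 ± 2.17). The cofactor genes thus had a lower and more even summed level between the animals than the enzymes of the catecholamine chain. This evenness is of the sums and not of each gene. Gch1 was higher in animal 2 (29.3 and 34.6 TPM in animals 1 and 2) and Spr in animal 1 (27.9 and 23.4 TPM). In the catecholamine sum Th and Dbh differed most, and Pnmt (159 and 149.9 TPM) and Ddc (19.7 and 18.3 TPM) less. All 10 together took 0.0676% of TPM in animal 1 and 0.0557% in animal 2.

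**Figure D1:**
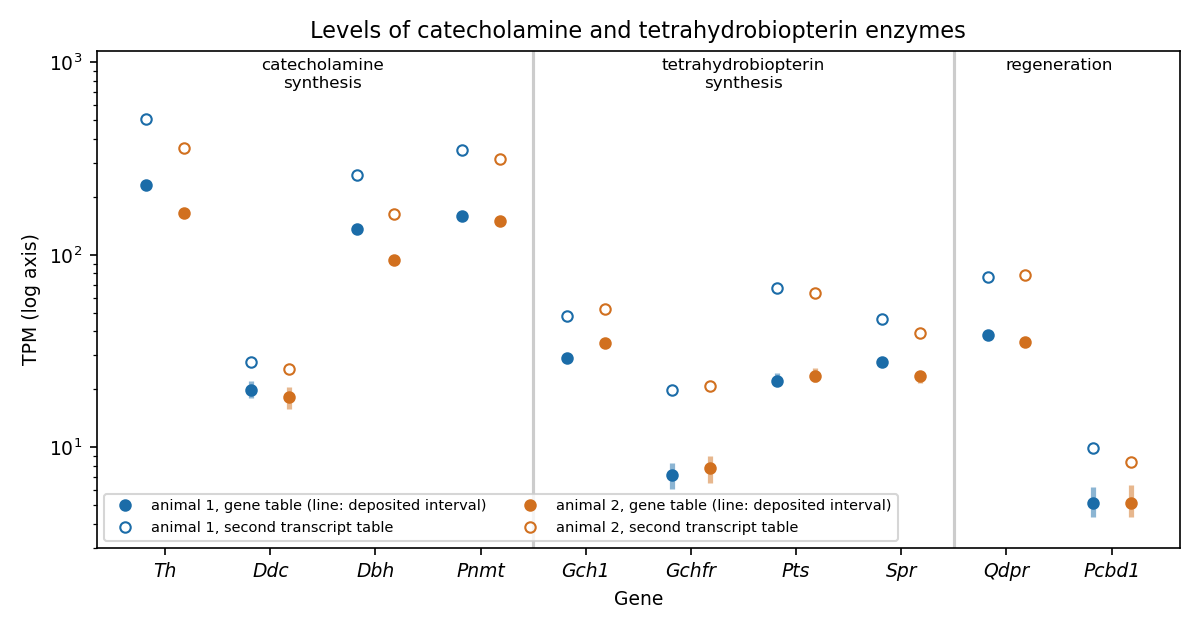
TPM on a log axis of the 10 enzymes in both libraries, with animal 1 left of animal 2, filled points for the gene tables with the deposited interval as a line, and open points for the second transcript tables. Th, Dbh and Pnmt stand between 94.0 and 232 TPM in the gene tables, above the other 7 genes, which lie between 5.11 and 38.3 TPM.

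Th, tyrosine hydroxylase (ENSMUSG00000000214.11, mm10 chromosome 7, 142892752 to 142931128, minus strand), had 232 and 165 TPM in animals 1 and 2, from 15587 and 10137 expected counts. It was the highest of the 10 and ranked 226 by mean TPM among 11552 detected protein-coding genes. Pnmt, the methyltransferase that makes adrenaline (ENSMUSG00000038216.7, chromosome 11, 98386450 to 98388181, plus strand), had 6507 and 5581 counts, at 159 and 149.9 TPM, and ranked 302. Dbh, the copper enzyme of the granule (ENSMUSG00000000889.8, chromosome 2, 27165233 to 27183200, plus strand), had 12927 and 8161 counts, at 136 and 94.0 TPM, and ranked 420.

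Ddc, the aromatic amino acid decarboxylase between Th and Dbh (ENSMUSG00000020182.16, chromosome 11, 11814101 to 11898144, minus strand), was far below the other 3 enzymes of the chain. It had 1182 and 952 expected counts, at 19.7 and 18.3 TPM, and ranked 3234. Within the same library Th exceeded Ddc 11.7-fold in animal 1 and 9.002-fold in animal 2, a Ddc over Th log2 ratio of TPM of -3.36 ± 0.27 (SD, n = 2). The ratio was -4.00 in the second quantification, so the order of these 2 genes held in both. Pnmt over Th was -0.34 ± 0.29, with Pnmt below Th in both animals. Pnmt over Dbh was 0.45 ± 0.32, or 1.16-fold in animal 1 and 1.59-fold in animal 2, and without correction for transcript length it turned to -0.77.

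Gch1, GTP cyclohydrolase, the first and rate-limiting enzyme of tetrahydrobiopterin synthesis (ENSMUSG00000037580.10, chromosome 14, 47153895 to 47189413, minus strand), had 3050 and 3304 expected counts, at 29.3 and 34.6 TPM. Spr, sepiapterin reductase, which makes the finished cofactor (ENSMUSG00000033735.9, chromosome 6, 85130176 to 85137766, minus strand), had 1243 and 951 counts, at 27.9 and 23.4 TPM. Pts, pyruvoyltetrahydropterin synthase, the enzyme between them (ENSMUSG00000032067.6, chromosome 9, 50521617 to 50528724, minus strand), had 784 and 794 counts, at 22.1 and 23.4 TPM. The 3 enzymes of the route thus lay close together, within 22.1 to 34.6 TPM.

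Gchfr encodes the regulatory protein that binds GTP cyclohydrolase and mediates its feedback inhibition by tetrahydrobiopterin (ENSMUSG00000046814.3, chromosome 2, 119167773 to 119172390, plus strand). It had 153 and 152 expected counts, at 7.21 and 7.84 TPM, and ranked 6721. Gch1 exceeded it 4.06-fold in animal 1 and 4.42-fold in animal 2, and 2.43-fold and 2.51-fold in the second quantification. Th in turn exceeded Gch1 7.93-fold in animal 1 and 4.77-fold in animal 2. The Gch1 over Th log2 ratio of TPM, -2.62 ± 0.52, had the widest spread of the 10 ratios computed between members.

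Of the regenerating enzymes, Qdpr, the dihydropteridine reductase (ENSMUSG00000015806.12, chromosome 5, 45434021 to 45450236, minus strand), had 1869 and 1555 expected counts, at 38.3 and 35.2 TPM. It was the highest of the 6 cofactor genes. Pcbd1, the carbinolamine dehydratase that acts just before it (ENSMUSG00000020098.7, chromosome 10, 61089331 to 61094324, plus strand), had 137 and 126 counts, at 5.11 and 5.15 TPM. It was the lowest of the 10 and ranked 8072. Qdpr exceeded Pcbd1 7.49-fold in animal 1 and 6.83-fold in animal 2 (log2 ratio 2.84 ± 0.09).

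By TPM the 10 genes stood in the same order in both animals, from Th through Pnmt, Dbh, Qdpr, Gch1, Spr, Pts, Ddc and Gchfr to Pcbd1. Neighbours in this order whose means differed by less than the larger of their SDs were Th and Pnmt (198 ± 47.2 and 154 ± 6.23 TPM) and Spr and Pts (25.6 ± 3.15 and 22.7 ± 0.905 TPM). In the second quantification Pts stood above Gch1 and Spr, at 65.2 TPM against 50.3 and 42.9 TPM. The Pts over Gch1 log2 ratio was -0.49 ± 0.11 in the first quantification and 0.38 in the second, so the order of these 2 genes depended on the table.

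Between the animals, none of the 10 enzymes was called apart. A call required scaled counts at least 2-fold apart, no overlap of the TPM intervals that the authors deposited, and an average of 50 or more expected counts. Of the 13569 genes with that many counts, 3.46% were called, 1.75% as higher in animal 1 and 1.71% as higher in animal 2. At 1.5-fold, again with intervals apart, 9.71% of genes passed and none of the 10 enzymes, though Dbh was just short at 1.496-fold. Counts were scaled with TMM, which assumes that most genes are alike between libraries, and log2 ratios are of animal 1 over animal 2. Dbh had a log2 ratio of 0.58 (counting interval 0.54 to 0.62) and Th of 0.54 (0.50 to 0.57), so both were higher in animal 1, and for neither did the deposited intervals overlap. Of all genes tested, 13.5% were further apart than Dbh and 15.7% further apart than Th. The 2 genes were nearly equal in this respect, and their ratio to each other, Dbh over Th, was -0.77 in animal 1 and -0.81 in animal 2.

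Spr had a log2 ratio of 0.30 (0.18 to 0.43), Ddc of 0.23 (0.10 to 0.35), Qdpr of 0.18 (0.08 to 0.28) and Pnmt of 0.14 (0.09 to 0.19). Gch1 went the other way, at -0.20 (-0.27 to -0.13), with 27.7 to 29.8 TPM as the deposited interval of animal 1 and 32.9 to 35.2 TPM as that of animal 2. Pts, Gchfr and Pcbd1 had counting intervals that included 0. In all, 7 of 10 had a higher scaled count in animal 1, as did 51.7% of all genes tested, and 3 of 10 in animal 2, as did 48.3%. The deposited intervals did not overlap for 5 of 10 (Th, Dbh, Pnmt, Spr and Gch1), against 33.1% of all genes. Counting intervals leave out the spread between animals, and the median gene tested differed 1.16-fold in either direction.

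**Figure D2:**
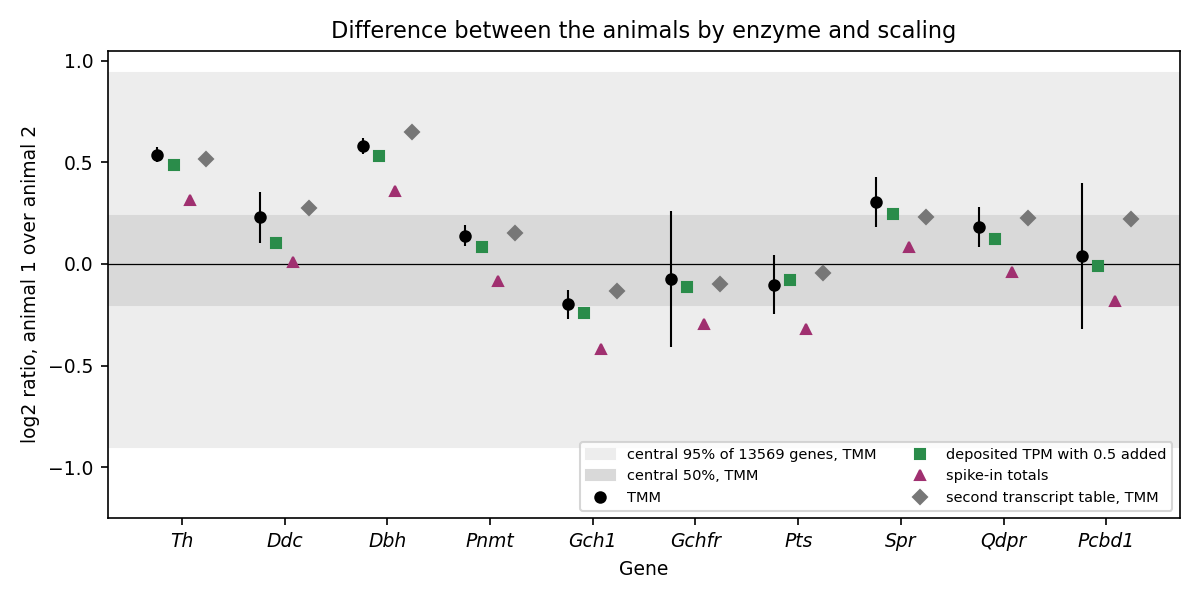
Log2 ratio of animal 1 over animal 2 for each enzyme under 4 scalings, with the counting interval as a line on the TMM points. Grey bands mark the central 50% and 95% of the genes tested with TMM, and were not redrawn for the other scalings. Th and Dbh lie above this TMM central 50% under each of the 4 scalings, while the other enzymes lie inside or near it under TMM. Pnmt, Qdpr and Pcbd1 change sign with spike-in totals.

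The direction of the smaller differences depended on the scaling. Scaling by spike-in totals moved the median of all genes tested to -0.21, against 0.01 with TMM, and left 4 of 10 enzymes higher in animal 1, where 26.6% of all genes were. Th then stood at 0.32, Dbh at 0.36, Spr at 0.08 and Ddc at 0.01, while Pnmt was -0.08, Qdpr -0.04 and Gch1 -0.42. The median over the 10 enzymes was 0.16 with TMM and -0.06 with spike-ins. The 13 chromaffin markers had a median of 0.25 with TMM, 12 of them higher in animal 1, and 0.02 with spike-ins. Relative to that marker median, Dbh was 0.33 and Th 0.29 higher in animal 1, Spr was at 0.06, and the other 7 enzymes lay between -0.44 for Gch1 and -0.02 for Ddc. With TMM the markers themselves ran from -0.007 to 0.85, a range that includes Dbh and Th.

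**Figure D3:**
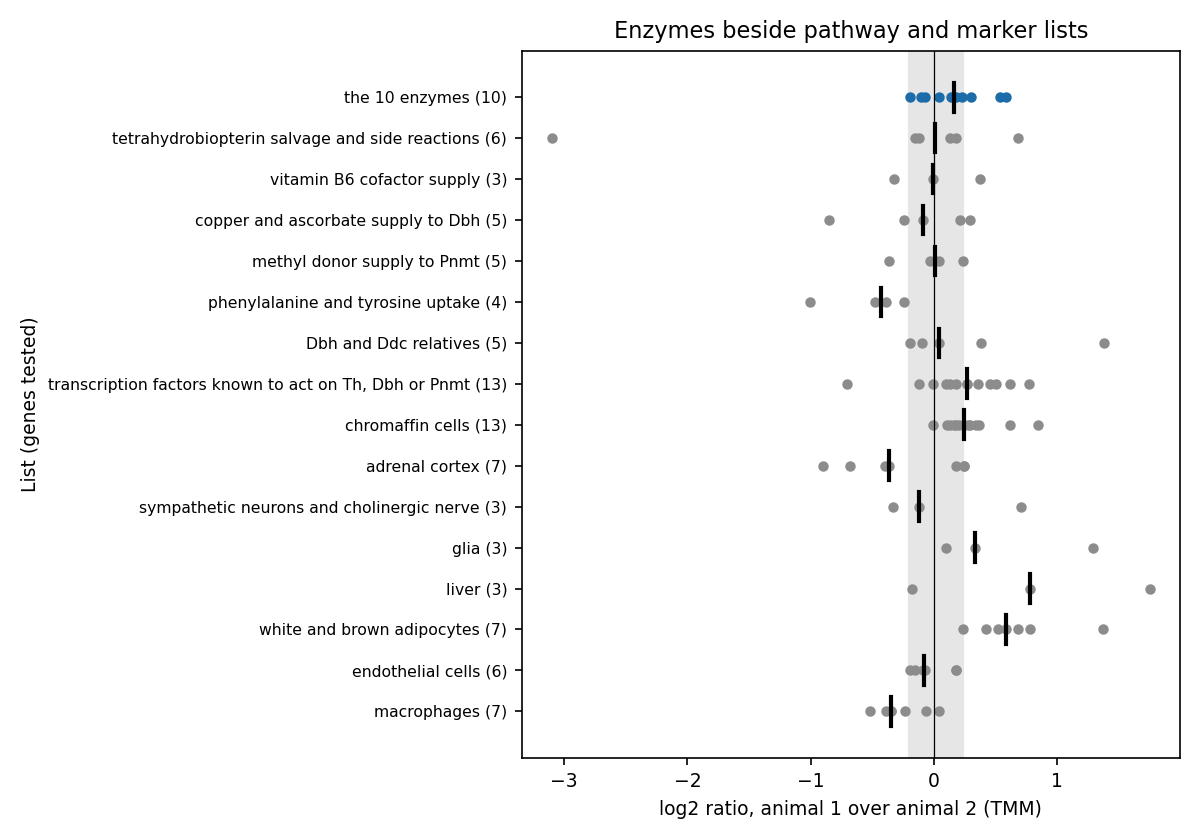
Log2 ratio of animal 1 over animal 2 (TMM) for the tested genes of each list drawn, with a black bar at the list's median and a grey band for the central 50% of all genes tested. The 10 enzymes have a median of 0.16, beside 0.25 for the chromaffin markers, -0.36 for the cortex markers and -0.43 for the genes of phenylalanine and tyrosine uptake. Striated muscle, with a median of 9.44, is beyond the axis and not drawn. Also not drawn are the aromatic amino acid hydroxylases (0 genes tested). The same holds for other tetrahydrobiopterin-dependent enzymes, kidney, and mast or enterochromaffin-type cells (2 genes tested each).

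The 2 transcript tables of each library, which come from the same reads, gave different transcripts of Ddc. Ddc has 10 annotated transcripts, which were grouped by the position of their first exon after the values had been seen. A distal first exon at 11898008 to 11898144 belongs to Ddc-201 and Ddc-210, and a proximal first exon at 11890338 to 11890408 to Ddc-202, Ddc-204, Ddc-208 and Ddc-209. The outermost ends of the 2 groups are 7.7 kb apart. In rat and human alternative first exons of this gene are known, and they leave the protein unchanged.

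In the first quantification 93.1% of Ddc TPM in animal 1 and 79.8% in animal 2 came from the proximal start, and 3.55% and 6.22% from the distal start. In the second quantification the shares were 4.02% and 5.88% from the proximal start and 94.2% and 76.7% from the distal start. The assignment was opposite in both animals. The leading transcript of the first was Ddc-202, with 13.4 TPM (968 expected counts) in animal 1 and 10.5 TPM (690.0 counts) in animal 2, while the second listed it at 0. The leading transcript of the second was Ddc-210, with 26.2 TPM (1127 estimated counts) and 19.7 TPM (839 counts), while the first listed it at 0. Ddc-210 and Ddc-202 share 13 of the 14 exons that follow the first exon, and their first exons are 133 and 71 bases long. Few bases therefore tell these transcripts apart. Which start was used cannot be told from these tables, and the cause of the difference was not tested.

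The remaining Ddc transcripts were lower. In the first quantification Ddc-209, a shorter coding transcript of the proximal start, had 4.67 and 3.83 TPM, Ddc-201 had 0.70 and 1.14 TPM and Ddc-208 had 0.28 and 0.32 TPM. Ddc-206, which begins inside the gene and is annotated as a processed transcript, took 3.34% of Ddc TPM in animal 1 and 13.5% in animal 2 in the first quantification, and 0 and 16.6% in the second. Both tables thus had more of it in animal 2, though from few counts (22.2 and 75.8 in the first, 0 and 68.6 in the second). Its deposited intervals in the first overlapped, reaching 2.16 TPM in animal 1 and starting at 0.59 TPM in animal 2. The tables come from the same reads, so the second is not a separate observation. Ddc-203, Ddc-204, Ddc-205 and Ddc-207 stayed below 0.5 TPM in both tables and both animals. Summed over transcripts, Ddc had 27.8 and 25.7 TPM in the second quantification, so the gene's own level was less affected than the choice of its first exon.

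**Figure D4:**
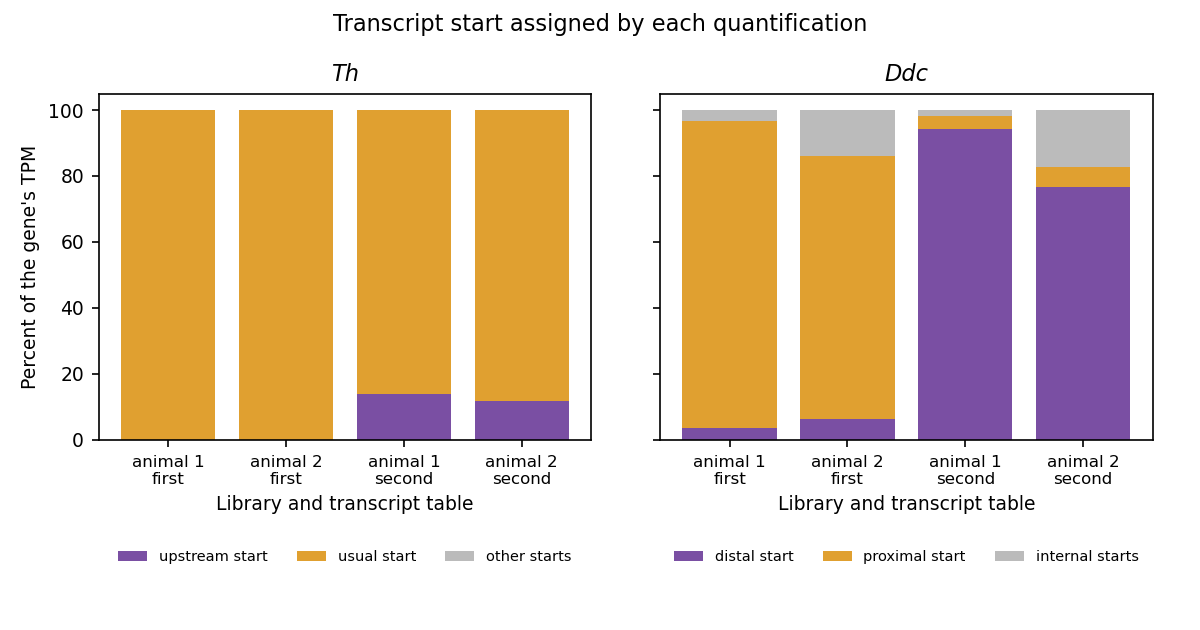
Percent of the TPM of Th and Ddc by group of annotated first exons, for each library in the first and the second transcript table. For Ddc the proximal start holds 93.1% and 79.8% in the first table and the distal start 94.2% and 76.7% in the second, and for Th an upstream start holds 14.0% and 11.8% in the second table alone.

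For Th the first quantification placed 99.9% of TPM in animal 1 and 100% in animal 2 on Th-201, the coding transcript of 13 exons, and of the other 5 transcripts it gave 0.15 TPM to Th-204 in animal 1 and 0 to the rest. The second gave Th-201 75.7% and 70.0%, at 384 and 252 TPM. It added Th-206 (70.9 and 42.5 TPM, from 1232 and 737 estimated counts), Th-203 (38.9 and 32.3 TPM) and Th-204 (13.2 and 33.1 TPM). Th-203 and Th-204 are annotated as targets of nonsense-mediated decay. Th-206 is a short coding model of 4 exons and 1012 bases whose first exon, at 142930594 to 142931120, lies far upstream of the start of Th-201. The outermost ends of the 2 groups of starts are 31.1 kb apart. Th-202, the other transcript of the upstream start, and Th-205 were listed at 0 in both tables.

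The splice junctions by which these Th transcripts differ are printed from the GENCODE M21 transcripts, with the last 20 bases before the junction in capitals and the first 20 after it in lower case. In chr7:142897966-142900014 (minus strand) Th-201 joins base 142899872 to base 142898190, and Th-203 joins the same base to 142898011, further into the next exon. Th-206 joins base 142930594 to the same exon start as Th-201. In chr7:142895089-142896079 (minus strand) Th-201 joins base 142896029 to base 142895668, and Th-204 joins it to 142895158, leaving out a pair of exons.
Th-201 exon 1 to 2: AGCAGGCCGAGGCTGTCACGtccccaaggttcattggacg
Th-203 exon 1 to 2: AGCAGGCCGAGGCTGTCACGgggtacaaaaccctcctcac
Th-206 exon 1 to 2: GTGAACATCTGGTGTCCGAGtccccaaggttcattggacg
Th-201 exon 6 to 7: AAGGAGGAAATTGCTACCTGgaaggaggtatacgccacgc
Th-204 exon 6 to 7: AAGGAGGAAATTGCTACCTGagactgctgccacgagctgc
The junctions of Th-201 and Th-203 share the bases before the join, and those of Th-201 and Th-206 the bases after it. Fragments that cross these joins would tell the transcripts apart, but the deposited tables hold no counts of them.

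For the other enzymes both tables named the same leading transcript. For Dbh, Pnmt, Gch1, Gchfr, Spr and Pcbd1 this coding transcript held at least 96.4% of the gene in both tables and both animals. Pts-201 held 80.9% and 79.2% of Pts in the first quantification and 45.9% and 46.2% in the second. There the short coding transcripts Pts-206 (23.4 and 16.2 TPM from 113 and 78.4 estimated counts) and Pts-202 (8.23 and 11.7 TPM from 21.03 and 28.6 counts) had high TPM from few counts. Qdpr-201 held 83.5% and 77.7% of Qdpr in the first and 75.1% and 59.1% in the second, which also gave 9.68 and 17.1 TPM to Qdpr-210, annotated as a retained intron.

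The 2 quantifications also differed in level. The second over the first table had a median log2 ratio, with 1 TPM added, of 0.96 over the 10 enzymes, from 0.47 for Ddc to 1.48 for Pts, beside 0.78 over all 12552 detected genes and 0.79 over the 11552 protein-coding ones. The enzymes were thus scaled up about as other protein-coding genes were, whose central 95% ran from 0.31 to 1.49. The tables used different effective lengths, the transcript length left after allowing for fragment size. In the first table the length exceeded the effective length by 99 bases in each of the 68587 transcripts of 1000 bases or more. In the second the median excess was 328 bases in animal 1 and 323 bases in animal 2. The effective length of Gchfr, one of the shorter genes, was 546 bases in the first table and 317 and 322 in the second, and that of Pts was 913 and 958 bases against 492 and 533.

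No gene annotated within a member's span took many counts. The antisense genes 1700042O10Rik, across from Ddc, and Gm42413, across from Qdpr, were listed at 0 in both libraries. The pseudogene Gm49134 inside Gch1 was at 0, and Gm18811, also inside Gch1, had 2 and 7 expected counts. Spr-ps1, a transcribed pseudogene near Spr, had 22 and 22 counts beside 1243 and 951 for Spr. The library kit keeps the strand, but which strand setting was used in counting is not stated in the sources used here.

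Genes around the pathway were counted by list. For every list the shares over all genes tested are 3.46% called, 51.7% higher in animal 1 and 48.3% higher in animal 2. The tryptophan hydroxylases, which use the same cofactor, were nearly absent, with Tph1 at 0.03 and 0 TPM and Tph2 at 0.01 and 0 TPM. Of 6 genes of tetrahydrobiopterin salvage and side reactions, 3 were higher in each animal and 1 was called, with a median of 0.00. The called gene was Akr1c18, a steroid dehydrogenase whose human relative AKR1C3 can act on intermediates of the cofactor, at 116.5 and 1034 TPM. Akr1b3, aldose reductase, had 83.9 and 91.3 TPM and Pcbd2, the paralog of Pcbd1, had 27.05 and 25.5 TPM. By TPM Pcbd2 thus stood above Pcbd1 in both libraries.

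All 4 carriers of phenylalanine and tyrosine were higher in animal 2, with deposited intervals apart in all 4, where 20.6% of all genes tested were apart and higher in animal 2. Slc3a2, the heavy chain that brings the amino acid carriers to the membrane, was called, at 53.9 TPM in animal 1 and 112.5 TPM in animal 2 (log2 ratio -1.01). Its partners Slc7a8 and Slc7a5 had 13.6 and 16.8 TPM, and 10.9 and 14.6 TPM. These carriers serve many cell types, and the 7 cortex markers were also lower in animal 1 by their median, at -0.36, with 4 of 7 higher in animal 2. The part of the cortex in this difference was not tested.

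Genes that supply the other cofactors went both ways. Of the vitamin B6 list, whose product Ddc needs, Plpbp had 39.3 and 36.8 TPM and Pdxk, which phosphorylates the vitamin, 10.04 and 7.80 TPM, neither called. Of 5 tested genes that supply copper or ascorbate to Dbh, 2 were higher in animal 1 and 3 in animal 2, none called, with a median of -0.09. The deposited intervals did not overlap for any of the 5, against 33.1% of all genes with intervals apart. Atox1, a copper chaperone, had 116.2 and 98.0 TPM, Cyb561, which passes electrons to ascorbate inside chromaffin granules, 55.0 and 50.6 TPM, and Slc23a2, an ascorbate transporter, 38.1 and 72.0 TPM. Its relative Slc23a1 was listed at 0. Of 5 genes of the methyl donor cycle used by Pnmt, 3 were higher in animal 1 and 2 in animal 2, none called, with Mat2a at 68.9 and 87.9 TPM, Ahcyl1 at 69.2 and 76.2 TPM and Adk at 34.7 and 35.2 TPM.

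Of 14 transcription factors known to act on Th, Dbh or Pnmt, 13 were tested, 10 were higher in animal 1 and 3 in animal 2, and none was called. Of all genes tested, 51.7% were higher in animal 1 and 3.46% were called. The deposited intervals were apart for 3 of the factors higher in animal 1 and 1 of those higher in animal 2. With spike-ins 7 factors were higher in animal 1, as were 26.6% of all genes. The median of the tested factors was 0.27 with TMM and 0.05 with spike-ins, beside 0.16 and -0.06 for the enzymes. Nr4a1, an early response receptor, had 85.8 and 83.0 TPM, the hypoxia factor Epas1 55.6 and 53.25 TPM and Creb1, which binds the cyclic AMP response element, 12.2 and 12.3 TPM. Tfap2a was nearly absent, at 0.06 and 0.02 TPM. Chosen after their values were seen, the homeodomain factor Phox2a had a log2 ratio of 0.77, Hand2 of 0.45, and Egr1, an early response factor that acts on Pnmt, of -0.71. Phox2a and Hand2 thus had a higher scaled count in animal 1, as Th and Dbh had, and Egr1 a lower one.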

How the data were processed

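Total RNA-seq libraries of adrenal gland tissue from 2 animals were described from the deposited gene and transcript tables. Per the file headers, the first quantification holds expected counts, TPM and the percent of a gene's TPM per transcript, in the column names that RSEM writes. The interval bounds deposited by the authors were treated as a score on the TPM scale, with no level stated. The second transcript table deposited by the authors holds estimated counts and TPM in the column names that kallisto writes. Per the labels the assembly was mm10, and gene IDs were matched to GENCODE M21. Program names and versions are not stated in the sources used here. The 96 spike-ins and 26248 entries named by a number were left out of gene results.

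The following was computed from these tables. Rounding expected counts to integers was followed by TMM scaling in edgeR 4.0.16 (R 4.3.3), with 0.5 added before the log2 ratio of animal 1 over animal 2. No test across replicates was possible. Counting intervals are exact binomial intervals (95%) of the 2 counts and cover counting error alone, as the reads carry no molecular identifiers and need not be separate molecules. The fold and count parts of the calling rule were run on simulated counts with less spread than between these libraries. The rule with its intervals was not tested. The 2 libraries differed beyond counting noise (chi-square over degrees of freedom 60.6 over 17024 genes), so they are not 1 library deposited in duplicate. Alternatives were DESeq2 1.42.0 size factors, spike-in totals, upper quartile, other count minimums, folds and added counts, and the second transcript table. Sequences came from RefSeq promoters (GRCm38.p6) and GENCODE M21 transcripts.

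The genes named were the members, every transcript of Th and Ddc, up to 3 of the highest genes of each pathway list and 2 of each marker list, called genes, undetected genes of the pathway lists (under 0.1 TPM in both libraries), and genes overlapping a member. A few genes that this rule covers are not reported here. The members and lists were chosen with earlier results of these data known.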

Additional observations from a re-analysis of the deposited data

How the results depend on the processing

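No paired analysis was possible because the libraries form 1 group. Summed TPM of the catecholamine, tetrahydrobiopterin synthesis and regeneration genes and of all 10 enzymes was 1004, 178.7, 86.8 and 1269 in the second table, and 1618, 290.7, 138.7 and 2047 over nuclear protein-coding genes alone. The median log2 ratio of the enzymes, 0.16 with TMM, was -0.061 with spike-in totals and -0.0856 relative to the chromaffin markers, with 4 and 3 of 10 higher in animal 1. Over all genes, 469 were called, 237 higher in animal 1 and 232 in animal 2. There were 786 without a count minimum, 733 at a minimum of 10 and 1317 at 1.5-fold. Spike-in totals gave 152 higher in animal 1 and 393 in animal 2, and the chromaffin median gave 149 and 421. No enzyme was called with 1 of these scalings, minimums or folds changed at a time. The 1.5-fold rule was run with TMM alone, where Dbh fell just short at 1.496-fold. The Dbh log2 ratio was 0.595 with DESeq2 size factors and 0.648 in the second table, both past 1.5-fold. The lack of an enzyme at 1.5-fold thus depends on the scaling.

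In the second table the log2 ratios of TPM were -4.00 for Ddc over Th, -1.05 for Dbh over Th, 0.38 for Pts over Gch1, -1.305 for Gchfr over Gch1 and 3.09 for Qdpr over Pcbd1. Without length correction they were -0.29 for Dbh over Th, -0.77 for Pnmt over Dbh, -1.06 for Pnmt over Th, -1.985 for Gch1 over Th, -2.01 for Pts over Gch1, -1.55 for Spr over Gch1, -4.38 for Gchfr over Gch1, 3.70 for Qdpr over Pcbd1 and -2.88 for Qdpr over Th. In the second table Th-201 held 72.9% of Th and its upstream start 12.9%, while Ddc-202 held 0%, the distal Ddc start 85.5% and the proximal one 4.95%. With either animal alone the median of the second over the first table was 0.93 to 0.96. The cause of these differences was not tested. With 2 libraries, the SDs rest on 1 difference each, and Pcbd1 and Gchfr on fewer than 200 counts.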

Other observations

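Other users of tetrahydrobiopterin were low. The endothelial nitric oxide synthase Nos3 had 3.29 and 2.74 TPM in animals 1 and 2, the alkylglycerol monooxygenase Agmo 1.86 and 2.10 TPM, and the neuronal nitric oxide synthase Nos1 0.08 and 0.23 TPM. Of 8 enzymes related to Dbh, Ddc or methyltransferases such as Pnmt, 5 were tested, with a median log2 ratio of 0.04. Pam, the copper enzyme that amidates peptides and resembles Dbh, had 106 TPM in each animal, and Hdc, the histidine decarboxylase that resembles Ddc, had 14.4 and 15.65 TPM, close to Ddc itself. Nnmt, a methyltransferase of the same family as Pnmt that is abundant in fat, was called, at 18.15 TPM in animal 1 and 7.38 TPM in animal 2 (log2 ratio 1.38). All 7 tested adipocyte markers were also higher in animal 1, with a median of 0.58, and their part in the Nnmt difference was not tested. Gad2 and Moxd2 were listed at 0 in both libraries.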
